A study of Mus musculus with 2 samples.

Results

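The 7 genes described here are neural genes that the submitters of a mouse embryonic stem cell study listed as different between cells that overexpressed Flag-tagged Prdm14 and cells that overexpressed the Flag tag alone. They are Sox21, Pou4f2, Mir124a-1hg, Pdyn, Gfra1, Lrrn2 and Tppp3, and they were taken by symbol from a table of 886 listed genes. All 7 were found. They were chosen for their difference between these conditions, so their levels are a description of the authors' means and carry no test of their own.

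The cells were of the mouse embryonic stem cell line 46C, in which green fluorescent protein reports the neural gene Sox1. They grew in medium with serum and LIF, a cytokine that holds the pluripotent state. RNA from Prdm14 cells and from Flag cells was sequenced, with 1 sample per condition in the labels. Both conditions carry the same parental line and a Flag overexpression, and the labels do not say whether each culture was a clone or a pool. Each gene has 1 mean per condition in TPM (a level scaled by transcript length and by the library's total), with no value per replicate and an unknown read depth, so no SD could be given and the differences have no replicate check. Fewer cells expressing a gene and less RNA per cell cannot be told apart in such bulk samples. Prdm14 itself, the overexpressed pluripotency regulator, was at 399 TPM in Prdm14 cells, against 3.296 TPM in Flag cells. The submitters' design text gives gadd45g as the tagged gene, while titles and labels give Prdm14. Gadd45g was at 3.57 TPM in Prdm14 cells and 21.6 TPM in Flag cells, so the sample labels were followed.

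Embryonic stem cells keep most neural genes at a low level and can turn them on when they leave pluripotency. Neural fate is set by transcription factors of the SOX, POU-domain and basic helix-loop-helix families, and neurons then make neuropeptides, receptors for growth factors, adhesion proteins and a specialised microtubule skeleton. Brain-enriched microRNAs such as miR-124 act in the same process by repressing transcripts of non-neural cells. The 7 genes touch each of these roles except the basic helix-loop-helix factors.

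Of the 7 genes, 6 were higher and 1 was lower in Prdm14 cells. The table lists 886 genes of a number tested that its q-values put at 20309, or 4.36% (2.30% higher and 2.06% lower). All 7 also passed an absolute log2 ratio of 2, which 77 higher genes (0.379% of those tested) and 145 lower genes (0.714%) passed. Since the genes were picked from the table, nothing is read from either count. The 6 higher genes were at 8.34 to 74.1 TPM in Prdm14 cells and at 0.947 to 6.06 TPM in Flag cells. All 6 therefore lay below the median of the listed genes in Flag cells (9.15 TPM), and 4 of the 6 lay above the median in Prdm14 cells (10.1 TPM). The smallest larger mean in the table is 5.01 TPM, and all 6 but Tppp3 had a Flag mean below it. Their place against the medians thus follows in part from how the genes were selected, and nothing is read from it. Gfra1 lay below the median in both conditions.

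**Figure D1:**
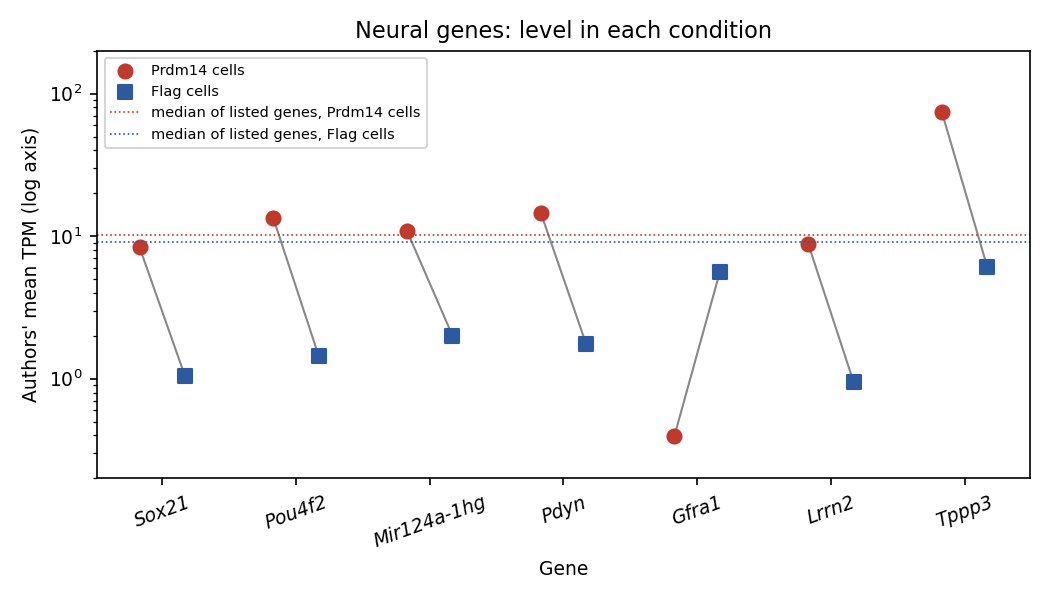
Authors' mean TPM (log axis) of each of the 7 genes in Prdm14 cells (circles, left) and Flag cells (squares, right), with 1 mean per condition and no error bar because the table gives means; dotted lines are the medians of the 886 listed genes. Gfra1 is the single gene whose line goes up towards the Flag cells, and Tppp3 in Prdm14 cells stands at 74.1 TPM.

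The order of the levels differed between the conditions. In Prdm14 cells Tppp3 came first, followed by Pdyn, Pou4f2, Mir124a-1hg, Lrrn2, Sox21 and Gfra1. In Flag cells Tppp3 was again first and Gfra1 second, followed by Mir124a-1hg, Pdyn, Pou4f2, Sox21 and Lrrn2. Without replicate values it cannot be said which neighbours in either order differ beyond their spread. Together the 7 genes summed to 130.6 TPM in Prdm14 cells and 18.9 TPM in Flag cells, and Tppp3 made up 56.7% of the sum in Prdm14 cells. Without Tppp3 the sums were 56.5 TPM in Prdm14 cells and 12.8 TPM in Flag cells.

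The DNA just before the start sites of Sox21, Pou4f2 and Pdyn, all among the 6 higher genes, is shown for comparison. The genes were picked from this contrast, and what their shared direction has to do with these sequences was not tested. The sequences are from RefSeq (build GRCm38.p6, the same genome as mm10), 250 bases ending at the base before the start site, 5′ to 3′ on the gene's own strand, with CpG dinucleotides in capitals. The windows are chr14:118237031-118237280 on the minus strand for Sox21, chr8:78436648-78436897 on the minus strand for Pou4f2 and chr2:129699939-129700188 on the minus strand for Pdyn.
Sox21: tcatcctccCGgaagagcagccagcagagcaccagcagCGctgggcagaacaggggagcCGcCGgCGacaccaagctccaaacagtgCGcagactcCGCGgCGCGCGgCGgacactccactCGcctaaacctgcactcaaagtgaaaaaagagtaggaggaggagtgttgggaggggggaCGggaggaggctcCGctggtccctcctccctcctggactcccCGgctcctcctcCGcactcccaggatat
Pou4f2: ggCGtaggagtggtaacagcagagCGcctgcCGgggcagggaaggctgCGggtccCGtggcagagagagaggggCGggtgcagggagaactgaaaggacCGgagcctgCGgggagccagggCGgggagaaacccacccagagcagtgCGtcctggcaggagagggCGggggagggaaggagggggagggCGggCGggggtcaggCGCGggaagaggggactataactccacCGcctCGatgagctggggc
Pdyn: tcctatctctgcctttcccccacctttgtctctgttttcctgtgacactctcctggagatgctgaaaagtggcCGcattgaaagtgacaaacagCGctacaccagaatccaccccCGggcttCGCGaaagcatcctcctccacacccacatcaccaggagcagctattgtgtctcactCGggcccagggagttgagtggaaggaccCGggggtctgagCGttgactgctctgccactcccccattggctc

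The Sox21 and Pou4f2 windows each held 17 CpGs, a number that 76.5% of 32851 RefSeq windows of this kind stay below. The Pdyn window shown held 8 CpGs, and the window before its other RefSeq start site held 4. Those before Lrrn2 and Gfra1 held 10 each, against a median of 6 over all windows. The GC content was 70.8% for Pou4f2, 65.2% for Sox21 and 61.6% for Lrrn2. It was 57.2% for the Pdyn window shown, 44% for the other Pdyn window and 52.4% for Gfra1, where the median of all windows was 52.4%. RefSeq windows were matched for 5 of the 7 genes, with 6 windows in all. Those of Lrrn2 and Gfra1 overlap annotated exons of alternative transcripts and are not printed.

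Short motifs were searched on both strands of the 6 windows. The motif GGTCTCTAA, known for Prdm14, was in 0 of the 6 windows and in 0.24% of all windows. The half-site TTCAGCACC of REST, a repressor of neuronal genes, was also in 0 of the 6 windows and in 0.301% of all windows. The octamer ATGCAAAT, bound by POU factors, was in 0 of the 6 and in 1.60% of all windows. The GC box GGGCGG was found 5 times before Pou4f2, including 1 overlapping pair, and before none of the other 4 genes. A GC box was present in 32.7% of all windows, and 5 or more in 1.93%. The E-box CANNTG was in the windows of Lrrn2 and Gfra1, against 66.2% of all windows, and the SOX core ACAAT in those of Pdyn and Gfra1, against 27.7%. The windows cover 250 bases, and the data hold no binding measurement.

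Sox21 is a SoxB2 factor that in the neural tube opposes the SoxB1 factors that keep progenitors dividing. Sox21 (ENSMUSG00000061517, chromosome 14, 118233232 to 118237030, minus strand, 1 exon on mm10) was at 8.34 TPM in Prdm14 cells and 1.04 TPM in Flag cells, 8.02-fold higher. The Prdm14 level was below the median of the listed genes, and the fold was the 13th largest of the 468 higher genes. The 5′ end of the gene lies under Gm4675, a long noncoding RNA on the opposite strand that is not in the table. The deposited data do not state whether counting used the strand, so reads of both genes cannot be told apart there.

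Other SOX genes in the table went the other way. Of 19 protein-coding Sox genes in the annotation, 4 were listed, where 4.36% of all genes tested were. Sox21 was the 1 that was higher. Sox11, a SoxC factor of immature neurons, was at 1.01 TPM in Prdm14 cells and 12.6 TPM in Flag cells, 12.5-fold lower. Sox4, its SoxC relative, was at 15.9 TPM in Prdm14 cells and 34.1 TPM in Flag cells, 2.14-fold lower. Sox3, a SoxB1 factor of early neural progenitors on chromosome X, was at 5.37 TPM in Prdm14 cells and 10.8 TPM in Flag cells, 2.02-fold lower. Of the 41 listed genes on chromosome X, 14.6% were higher, against 52.8% of the table. The part of that pattern in the Sox3 value was not tested.

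Sox21 stands on a list of 32 SoxB and neural plate factors, of which 7 (21.9%) were listed, 2 higher and 5 lower. Of all genes tested, 4.36% were listed. List shares here and below count annotated genes, and how many of these were tested is not known. The median log2 ratio was -1.01 on the list and 1.03 over all listed genes. No listed gene has a ratio below 1.00 in size, so such medians mostly follow the direction that holds more genes. Besides Sox21 the higher gene of the list was Sall3, a zinc finger factor, at 11.5 TPM in Prdm14 cells and 1.70 TPM in Flag cells, 6.80-fold higher. Among the lower genes, Zic2, a zinc finger factor of the neural plate, was at 38.5 TPM in Prdm14 cells and 137 TPM in Flag cells. Otx2, a homeodomain factor of the epiblast and forebrain, was at 113 TPM in Prdm14 cells and 293 TPM in Flag cells. Zic5, the neighbour of Zic2 on chromosome 14, was at 17.3 TPM in Prdm14 cells and 34.8 TPM in Flag cells. Cdh2, the adhesion protein N-cadherin, was at 3.03 TPM in Prdm14 cells and 8.05 TPM in Flag cells. Zic2, Otx2 and Cdh2 differed by 3.56-fold, 2.58-fold and 2.66-fold, and Zic5 by 2.01-fold, which is close to the smallest difference in the table.

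Pou4f2, also called Brn3b, is a POU-domain factor best known for the differentiation of retinal ganglion cells. Pou4f2 (ENSMUSG00000031688, chromosome 8, 78433010 to 78436645, minus strand, 2 exons) was at 13.4 TPM in Prdm14 cells and 1.44 TPM in Flag cells, 9.30-fold higher. No other annotated gene overlaps it. Its paralog Pou4f1, a factor of sensory neurons on chromosome 14, was at 6.10 TPM in Prdm14 cells and 2.78 TPM in Flag cells, 2.196-fold higher. Of the 15 POU-domain genes on the list, 3 (20%, against 4.36% of all genes tested) were listed, these 2 higher and Pou3f1 lower. Pou3f1, a factor of the epiblast and of early neural cells, was at 4.89 TPM in Prdm14 cells and 149.8 TPM in Flag cells, 30.6-fold lower.

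Mir124a-1hg, also called Rncr3, is a long noncoding RNA that carries a miR-124 precursor. Mir124a-1hg (ENSMUSG00000097545, chromosome 14, 64587331 to 64593961, plus strand, 4 annotated transcripts) was at 10.9 TPM in Prdm14 cells and 2.004 TPM in Flag cells, 5.43-fold higher. The precursor Mir124a-1 (64590657 to 64590741) and a second microRNA gene, Mir3078 (64591185 to 64591271), lie on the same strand inside its exon 4 (64590273 to 64593961). Neither is in the table. The value is that of the host RNA, and the mature microRNA was not measured.

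Of 11 annotated microRNA host genes on the list, 2 (18.2%) were listed, against 4.36% of all genes tested, and the other was Mir670hg, at 0.933 TPM in Prdm14 cells and 7.07 TPM in Flag cells, 7.58-fold lower. A list of 20 genes linked to miR-124, which holds its known targets such as Ptbp1 and Ctdsp1 and the repressor Rest, had 0 listed members. A gene outside the table has no value here and is not shown to be unchanged.

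Early neuronal transcription factors and RNA-binding proteins form the next list. Of 42 proneural and neuronal differentiation genes, 1 was listed: Elavl2, an RNA-binding protein of neurons and germ cells, at 22.2 TPM in Prdm14 cells and 9.31 TPM in Flag cells, 2.38-fold higher. Its share of the list, 2.38%, is below the 4.36% of all genes tested.

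Pdyn encodes prodynorphin, the precursor of the dynorphin peptides that act on the kappa opioid receptor. Pdyn (ENSMUSG00000027400, chromosome 2, 129686565 to 129699844, minus strand, 4 exons) was at 14.6 TPM in Prdm14 cells and 1.75 TPM in Flag cells, 8.38-fold higher. Its receptor gene Oprk1 is not in the table. Trh, the precursor of thyrotropin-releasing hormone, was at 53.5 TPM in Prdm14 cells and 449 TPM in Flag cells, 8.39-fold lower. The 2 peptide precursors thus differed by nearly the same factor in opposite directions. Nxph4, a secreted neurexophilin, was at 12.1 TPM in Prdm14 cells and 4.75 TPM in Flag cells, 2.54-fold higher. These 3 were the listed genes among 34 neuropeptides, processing enzymes and opioid receptors (8.82%, against 4.36% of all genes tested).

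Gfra1 encodes a membrane-anchored receptor that binds the growth factor GDNF and signals together with the kinase Ret in neurons, kidney and spermatogonial stem cells. Gfra1 (ENSMUSG00000025089, chromosome 19, 58235604 to 58455909, minus strand, up to 12 exons) was at 0.398 TPM in Prdm14 cells and 5.63 TPM in Flag cells, 14.1-fold lower. It was the 34th largest decrease of 418. Its Flag level is close to the smallest larger mean in the table, 5.01 TPM, so it lies near the edge of what the table holds. The antisense gene Gm16277 overlaps 444 bases at its 3′ end and is not in the table. Ret and the ligand Gdnf are not in the table either.

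Of 13 GDNF-family ligands, receptors and partners, 3 (23.1%) were listed, against 4.36% of all genes tested. Ncam1, an adhesion molecule that can also bind GDNF, was at 8.62 TPM in Prdm14 cells and 2.39 TPM in Flag cells, 3.61-fold higher. Gdf15, a stress-induced ligand of the relative Gfral, was at 12.7 TPM in Prdm14 cells and 4.78 TPM in Flag cells, 2.65-fold higher. Gfra1 was the 1 lower member.

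Lrrn2 encodes a neuronal transmembrane protein with leucine-rich repeats. Lrrn2 (ENSMUSG00000026443, chromosome 1, 132880273 to 132940005, plus strand, 2 exons) was at 8.85 TPM in Prdm14 cells and 0.947 TPM in Flag cells, 9.35-fold higher. Its Flag level was the lowest of the 7 genes. A predicted microRNA gene, Gm44300, lies on the opposite strand within its bounds. Of 38 leucine-rich repeat and axon-related surface proteins, the other listed gene was Islr2, a neuronal surface protein also called Linx, at 6.67 TPM in Prdm14 cells and 1.76 TPM in Flag cells, 3.78-fold higher. Both listed genes of that list were higher, and their share of it, 5.26%, is near the 4.36% of all genes tested.

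Tppp3 belongs to the tubulin polymerization promoting proteins, which bundle microtubules. Tppp3 (ENSMUSG00000014846, chromosome 8, 105467493 to 105471526, minus strand, up to 4 exons) was at 74.1 TPM in Prdm14 cells and 6.06 TPM in Flag cells, 12.2-fold higher. It had the highest level of the 7 genes in both conditions and the 7th largest fold of the 468 higher genes. Neither of its relatives Tppp and Tppp2 is in the table.

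Of 32 neuronal cytoskeleton genes on its list, 8 (25.0%) were listed, against 4.36% of all genes tested, 6 higher and 2 lower, with a median log2 ratio of 1.12 against 1.03 over the table. Besides Tppp3 these were 5 higher and 2 lower genes, and the others on the list have no value here. Stmn2, a microtubule regulator of growing axons, was at 213.7 TPM in Prdm14 cells and 98.9 TPM in Flag cells, 2.16-fold higher. Tubb3, the neuronal beta-tubulin, was at 138 TPM in Prdm14 cells and 65.98 TPM in Flag cells, 2.09-fold higher. Dpysl3, a growth cone protein, was at 66.4 TPM in Prdm14 cells and 30.4 TPM in Flag cells, 2.18-fold higher. Stmn3, a relative of Stmn2, was 2.96-fold higher and the intermediate filament gene Prph 2.54-fold higher. The lower ones were Tubb4a, another beta-tubulin, at 1.15 TPM in Prdm14 cells and 14.97 TPM in Flag cells, and Gap43, a growth cone protein, at 6.35 TPM in Prdm14 cells and 13.1 TPM in Flag cells. Tubb4a was 13.0-fold and Gap43 2.06-fold lower.

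Of 46 synaptic and channel genes, 2 were listed, a share of 4.35% that is close to that of all genes tested. Slc18a3, the transporter that loads acetylcholine into synaptic vesicles, was at 8.83 TPM in Prdm14 cells and 1.39 TPM in Flag cells, 6.34-fold higher. Cacna1a, a calcium channel subunit on chromosome 8, was at 30.9 TPM in Prdm14 cells and 14.6 TPM in Flag cells, 2.12-fold higher.

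Over all 9 neural lists, 31 of 263 annotated genes (11.8%) were listed, against 4.36% of all genes tested, 20 higher and 11 lower. How many of the 263 were among the genes tested is not known, so the 2 shares have unlike bases. Besides the 7 genes, 14 were higher and 10 lower. Of these 24 genes, 11 overlap another annotated gene on either strand, among them Slc18a3, Pou3f1, Tubb3, Otx2 and Ncam1, so their values may hold reads of a second gene. Over the whole table, 447 of 886 listed genes have such an overlap. The share of higher genes was 64.5% over the neural lists and 52.8% over the table. The medians were 1.13 and 1.03 on the log2 scale, both close to the smallest ratio in the table, 1.00. The lists hold genes that were known from these data when they were written, so the shares are not independent of the result. Of the listed genes, 5 of 7 on the SoxB and neural plate list were lower and 6 of 8 on the cytoskeleton list were higher, and that contrast was not tested.

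**Figure D2:**
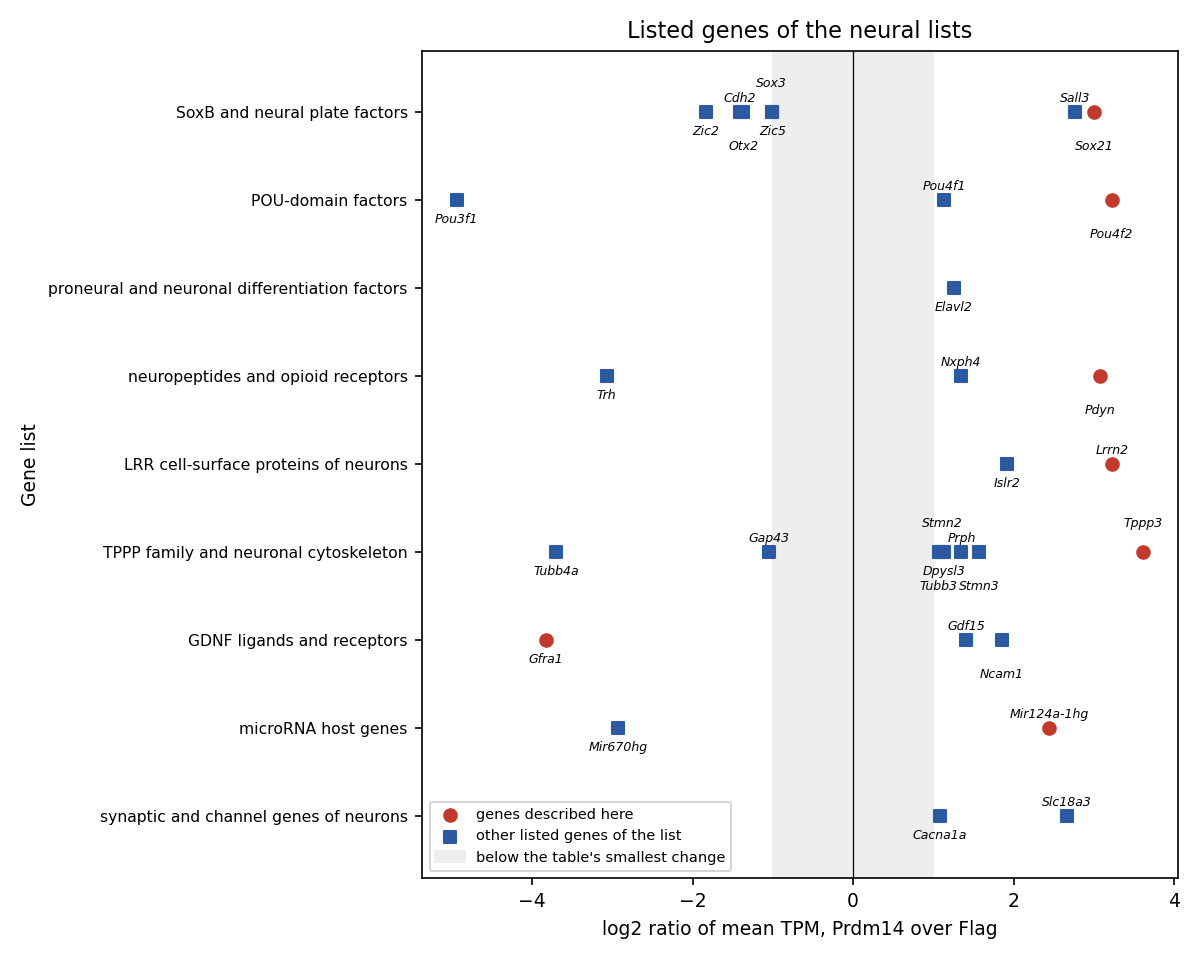
Log2 ratio of the authors' mean TPM (Prdm14 over Flag) for each listed gene of 9 neural gene lists, with the 7 genes described here as circles and other list members as squares; the grey band spans changes too small for the table. In the SoxB and neural plate list 5 of 7 genes lie left of 0, in the cytoskeleton list 6 of 8 lie right of it.

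The label neural was set beside cell type markers. Of all genes tested, 4.36% were listed, so little can be read from a short list with few or no listed members. A gene outside the table has no value and is not shown to be unchanged. Of 9 neuronal markers, Tubb3 and Stmn2 were listed and higher, and Map2, Rbfox3, Dcx, Elavl3, Elavl4, Syt1 and Snap25 were not in the table. Tubb3 lies on chromosome 8, where 79.7% of the 64 listed genes were higher. None of 6 neural progenitor markers, Sox1, Pax6, Nes, Fabp7, Hes5 and Msi1, was listed, and none of 6 glial markers or of 5 collagen and surface markers of fibroblasts. The longer glial list of 14 genes had 0 listed members. Of 12 fibroblast and feeder genes, Tagln, an actin-binding protein of contractile cells, was listed, at 1.23 TPM in Prdm14 cells and 5.91 TPM in Flag cells, 4.79-fold lower. Of 12 neural crest genes, Ngfr, the low-affinity neurotrophin receptor, was listed and higher. Of 7 embryonic stem cell markers, 6 were listed and higher, but 1 of these is the overexpressed Prdm14 itself. The other 5, Nanog, Zfp42, Esrrb, Klf4 and Tfcp2l1, summed to 1351 TPM in Prdm14 cells and 468 TPM in Flag cells, and Pou5f1 was not in the table. On the wider lists, 12 of 14 naive pluripotency genes, Prdm14 among them, were listed and higher, and 0 of 8 core pluripotency genes were listed. The 2 neuronal markers summed to 352 TPM in Prdm14 cells and 165 TPM in Flag cells. The 7 genes are called neural here for what they are known for in other cells. What the change in the neuronal markers has to do with the 7 genes was not tested.

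The 7 genes were also placed in the order of log2 ratios of all listed genes. Lrrn2 and Pou4f2 were neighbours in the order of log2 ratios, at 3.22 each, and Pdyn and Sox21 followed at 3.07 and 3.004, with Gm4971 between Pou4f2 and Pdyn. The gene closest to Mir124a-1hg in log2 ratio was Ptgs1, a cyclooxygenase (2.44 for both), followed by Gm4340 (2.45) and Ngfr (2.41). Ngfr was at 38.2 TPM in Prdm14 cells and 7.16 TPM in Flag cells. The genes next to Gfra1 were Magel2 (-3.80) and Oasl2 (-3.92), against -3.82 for Gfra1. Likeness here is a difference in 1 ratio over 2 conditions. In the authors' deposited table the q-values of the 7 genes ran from 2.5e-79 for Tppp3 to 4.6e-19 for Gfra1, and their p-values held ranks 15 to 250 of 20309. The number of libraries behind those values is not given.

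**Figure D3:**
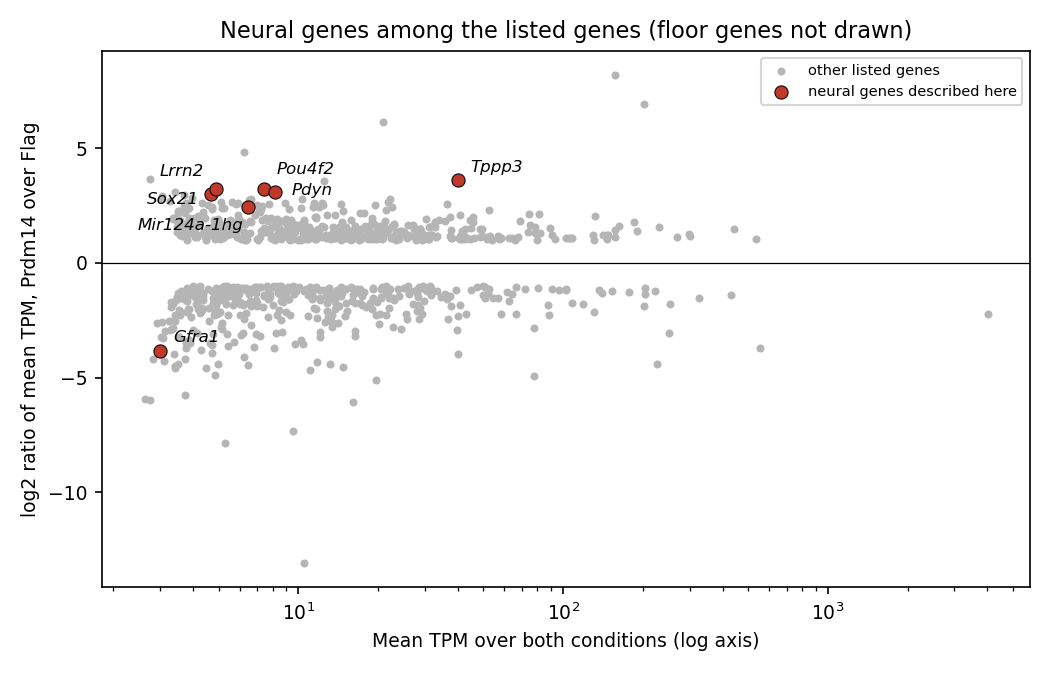
Log2 ratio of the authors' mean TPM (Prdm14 over Flag) against the mean TPM over both conditions (log axis) for listed genes that are above the table's floor in both conditions, with the 7 genes in red. Of these, 6 lie between 2.44 and 3.61 on the log2 scale and Gfra1 at -3.82, and all but Tppp3 have a mean below 10 TPM.

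Tppp3 and Pou4f2 lie on chromosome 8, as do Tubb3, Gdf15 and Cacna1a of the neural lists. That chromosome holds 64 listed genes. Of these 79.7% were higher, compared with 52.8% of the whole table. The part of this chromosome-wide pattern in the values of the named genes was not tested. The folds of Tppp3 and Pou4f2 were 12.2 and 9.30, and both genes were chosen from this contrast. The median fold among all higher genes of the table was 2.56, and no median was taken for chromosome 8. Within 1 Mb of Tppp3, 6 of 73 other protein-coding genes were listed, 5 higher and 1 lower, where 4.36% of all genes tested were listed. The nearest, the palmitoyltransferase gene Zdhhc1, lies 896 bases upstream of Tppp3 on the same strand and was at 12.4 TPM in Prdm14 cells and 4.27 TPM in Flag cells, 2.91-fold higher. Exoc3l was at 70.2 TPM in Prdm14 cells and 19.1 TPM in Flag cells, 3.67-fold higher, and Psmb10, an immunoproteasome subunit gene, was at 18.1 TPM in Prdm14 cells and 63.8 TPM in Flag cells, 3.53-fold lower.

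The other genes had fewer listed neighbours, named here by position after their values were seen. With 4.36% of all genes tested listed, nothing is read from the counts of neighbours. Within 1 Mb of Lrrn2, 3 of 36 protein-coding genes were listed and all 3 were higher: Pik3c2b by 2.53-fold, Dstyk by 2.42-fold and Plekha6 by 2.01-fold. Near Pdyn, the transglutaminase gene Tgm3 was 5.75-fold higher, at 21.04 TPM in Prdm14 cells and 3.66 TPM in Flag cells. Zfp827 near Pou4f2 was 2.28-fold higher. Ablim1, which lies 920.7 kb from Gfra1, was 3.58-fold higher while Gfra1 was lower. Sox21 and Mir124a-1hg, both on chromosome 14 where 18 listed genes were higher and 18 lower, had 0 listed genes within 1 Mb.

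**Figure D4:**
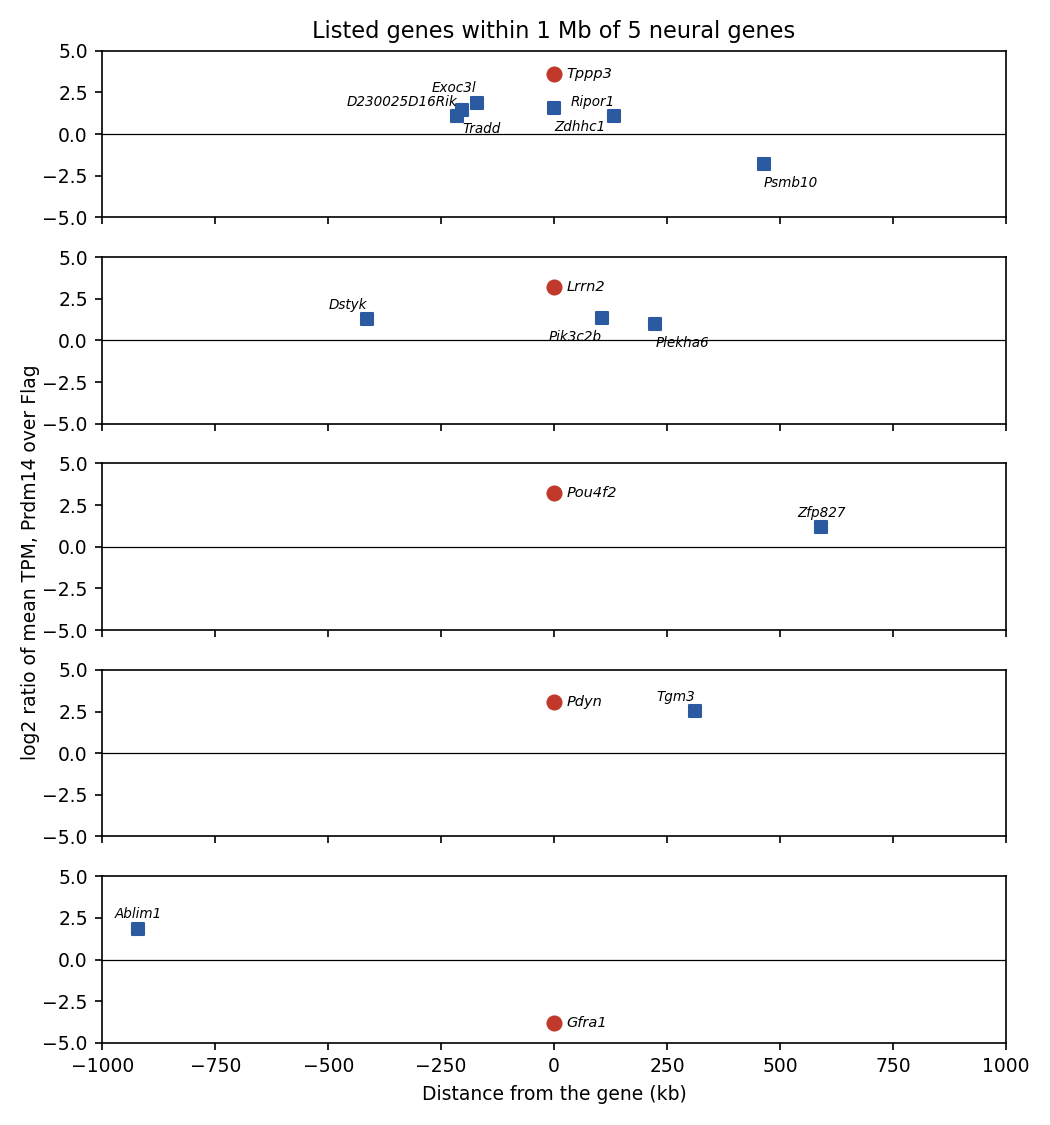
Log2 ratio of the authors' mean TPM (Prdm14 over Flag) of listed genes (squares) against their distance in kb from each of 5 neural genes (circles at 0), with genes to the right at higher coordinates. Around Tppp3 5 of 6 neighbours lie above 0 and Psmb10 below it, and around Lrrn2 all 3 lie above 0.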

How the data were processed

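RNA from Prdm14 and Flag cells of the line 46C was sequenced on an MGI2000 instrument, per the labels' protocols. The labels give 1 sample per condition, and the number of libraries behind each mean is not stated. Bowtie 0.12.2 and the build mm10 are named in the submitters' processing notes. Which program estimated TPM, and which test gave the p-values, is not stated in the labels. For 886 genes the authors deposited the mean TPM of both conditions with their log2 fold change and its p-value and q-value. The deposited log2 value equals the log2 ratio of the deposited means to within 4.1e-11. The number tested, 20309, is the smallest q-value over its p-value, and the implied rank was whole to within 0.01 in 830 genes. The listed genes differ at least 2-fold with a larger mean of at least 5.01 TPM and q-values up to 0.0427. How that selection was made is not stated, and genes outside the table have no value.

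All 886 IDs matched GENCODE M21 (mm10), and coordinates are 1-based. Folds are ratios of the deposited means, with no pseudocount. Counts by list and by direction, distances to other listed genes and motif matches were computed in Python 3.11.15 with numpy 2.4.6 and pandas 2.3.3, and figures were drawn with matplotlib 3.10.9. The motif search and the counting were tested on simulated data. No test was run, since each condition has 1 mean. Read depth is unknown, so no interval or detection limit is given. The 7 genes and the 15 gene lists were chosen with earlier results of these data known. The text names the 7 genes, listed members of the neural lists, relatives by gene name and up to 2 neighbours of each gene in log2 ratio; genes named by position were chosen after their values were seen. Of the 268 neural list genes, 5 microRNA hosts matched no annotated symbol. Alternatives changed the pseudocount, the fold, q and TPM minimums and the genes kept.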

Additional observations from a re-analysis of the deposited data

How the results depend on the processing

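No direction changed under either pseudocount, but the ratios of low genes shrank. With 1 TPM added to both means, the log2 ratio was 3.41 for Tppp3, 2.56 for Pou4f2, 2.51 for Pdyn, 2.34 for Lrrn2, 2.20 for Sox21, 1.98 for Mir124a-1hg and -2.25 for Gfra1. With 0.1 TPM added, these were 3.59, 3.13, 2.996, 3.10, 2.89, 2.38 and -3.52 in the same order. Gfra1 had the largest ratio of the 7 genes in size without a pseudocount and, with 1 TPM added, ranked below Tppp3, Pou4f2, Pdyn and Lrrn2. Among genes with an absolute log2 ratio of at least 2, 8 neural list members were higher and 5 lower. Over the table these were 77 (0.379% of genes tested) and 145 (0.714%). The 8 include the 6 higher genes described here and the 5 include Gfra1. These were picked from this contrast, so nothing is read from the counts. Without genes that overlap another annotated gene, an alternative chosen after seeing the data, 11 neural list members were higher and 5 lower, and 216 and 223 over the table. With fewer genes kept, counts can only fall. Counts stayed within 1.5 times under a q-value of at most 0.01, a mean of at least 5 TPM and, chosen after seeing the data, without chromosome 8. No paired analysis was possible because the labels give 1 sample per condition and only the authors' means are available. Replicates could not be left out for the same reason, and the unknown read depth leaves the precision of the values near 1 TPM unknown.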

Other observations

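Further genes of axon guidance and vesicle release, chosen by family name after their values were seen, went both ways. Of all genes tested, 4.36% were listed (2.30% higher and 2.06% lower), and nothing is read from the counts of these families. Of 20 semaphorin genes, 4 were listed, 2 higher and 2 lower: Sema6a was at 0.679 TPM in Prdm14 cells and 11.8 TPM in Flag cells, 17.3-fold lower, and Sema5b at 12.7 TPM in Prdm14 cells and 3.61 TPM in Flag cells, 3.53-fold higher. Of 8 ephrin genes, Efnb3 and Efna2 were 2.50-fold and 2.37-fold higher and Efnb2 was 2.16-fold lower. Of 17 synaptotagmin genes, which sense calcium or carry vesicles, Syt7 was 2.21-fold higher, while Syt13, Syt3 and Syt11 were 2.93-fold, 2.47-fold and 2.17-fold lower. Each value is a ratio of the authors' means without a replicate check.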
